A study of Mus musculus with 19 samples.

Results

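The potassium channel genes and the genes of their auxiliary subunits, whose symbols begin with Kcn, were examined in the brains of mice given CCI-779 or placebo. Members were the probe sets carrying a single gene symbol that begins with Kcn, leaving out the calcium-activated channels (symbols beginning Kcnm or Kcnn) and Kcne2. This rule gave 148 of 45037 probe sets, for 73 of 18193 genes. It used no measured value. One member, Kcnq1ot1, is an antisense RNA of the Kcnq1 locus and not a channel.

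Potassium channels let potassium leave the cell and so set the resting potential of neurons, end the action potential and limit the rate of firing. Voltage-gated subunits open on depolarisation, inward rectifiers and tandem-pore leak channels hold the cell near rest, and silent subunits and cytoplasmic partners alter the channels they join. In glia and in the choroid plexus, the tissue that makes cerebrospinal fluid, inward rectifiers carry potassium across the membrane and clear it from the extracellular space.

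The mice were male and either wild type (wt) or SCA3 transgenic, a model of Machado-Joseph disease, the spinocerebellar ataxia caused by a polyglutamine expansion. CCI-779, also called temsirolimus, is an ester of rapamycin that inhibits the kinase mTOR. Dosing began at 5 weeks of age and lasted 6 weeks, with 3 intraperitoneal injections of 20 mg/kg each week, and placebo injections followed the same schedule. There were 4 arrays of wt placebo, 5 of wt CCI-779, 5 of SCA3 placebo and 5 of SCA3 CCI-779 brains, with total RNA labelled with biotin. The labels give neither the promoter and repeat length of the transgene nor a brain region. Nor is it stated whether every array held RNA of its own animal, and the p-values therefore describe only the scatter among these samples, part of which may be technical. One wt CCI-779 sample carries no number in its label and is called replicate 1 here.

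All values are log2 of the deposited intensity. The arrays had mean intensities of 434 to 463. Bacterial control transcripts, spiked in before hybridisation, were dimmer under the drug, with means of 10.44 to 10.65 on the SCA3 CCI-779 arrays against 11.19 to 11.60 on the SCA3 placebo arrays. In wt they ran from 9.97 to 10.65 under CCI-779 and from 10.88 to 11.49 under placebo. The GAPDH 3′ minus 5′ difference, a sign of RNA quality, also moved with the drug: it was −0.43 to −0.28 in SCA3 CCI-779 and −0.44 to 0.28 in wt CCI-779, against −0.53 to −0.47 and −0.58 to −0.50 under placebo, so all drug arrays lay above all placebo arrays. A few arrays stood apart, wt CCI-779 replicate 1 by that difference (0.28, with the other 18 at −0.28 or below) and SCA3 CCI-779 replicates 2 and 5 by their cortical neuron markers. The summed intensity of 6 such markers was 16514 and 15492 on those 2 arrays and 5600 to 7097 on the other 17. The brain label was borne out by the neuronal markers, all 8 of which passed the filter on dim probe sets, with sums of 82299.5 to 90571.

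Testing was limited to probe sets whose log2 intensity averaged 4 or more across the 19 arrays, which left 45 of the 73 genes, among 10454 genes in all. They held 84 of 20473 tested probe sets, whose median SD over the 19 arrays was 0.22, against 0.19 for all tested. Kcng4, at a mean of 4.11, and Kcnj6, at 4.28, lay just above that limit, and a second probe set of Kcnj6, at 3.84, and the only one of Kcns1, at 3.68, lay just below. The other 28 genes were too dim to test. They included all 4 Kcne genes (mink-type subunits), 7 of the 15 Kcnj and 8 of the 12 Kcnk genes. Values for a gene are those of its brightest tested probe set. Other probe sets are given for some genes only, and those left out may differ from the brightest.

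Under CCI-779 in SCA3 mice, 6 potassium channel genes rose and 1 fell. Kcnh3, a voltage-gated channel of the ether-a-go-go superfamily, rose 1.34-fold, and Kcnf1, a silent subunit, rose 1.4-fold. The leak channels Kcnk3 and Kcnk2, the fast delayed rectifier Kcnc2 and the calcium sensor Kcnip2 rose between 1.18-fold and 1.26-fold. Kcnq5, a subunit of the M-current, fell by 0.29 on the log2 scale. Among all tested genes 11% rose and 6.09% fell, so the 13.3% and 2.22% of the 45 members lie near the background. The median change of the members was 0.05 and that of all genes 0.00. Repeated quantile normalization gave 4 higher and 4 lower genes, and centring each array on its median gave 3 higher and 6 lower. The spike-in level and the GAPDH difference, which both separated drug from placebo arrays, were tried as covariates. With the spike-in level no member passed, and with the GAPDH difference 6 did, 5 of them among the 7. Only 2 passed (Kcnc2 and Kcnh3) without SCA3 CCI-779 replicates 2 and 5. The share of all genes that passed in each of these fits is not given here. These counts are therefore not read as a result about the members.

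In wt mice 3 members rose under the drug, and none fell. Kcna1, a Shaker-type delayed rectifier of axons and terminals, rose 1.4-fold. Kcnf1 rose 1.39-fold and Kcnc2 1.2-fold, which makes these 2 the genes that passed in both genotypes. In wt 11.5% of all tested genes rose and 1.64% fell, against 6.67% and 0% of the members. Another 10 members had an unadjusted p under 0.05, 13 in all (28.9%, against 30.2% of all genes). The median change was 0.04 in the members and 0.08 in all genes. Centring lowered every change by 0.06 in SCA3 and by 0.10 in wt and left 1 member past the threshold in wt (Kcna1), as did repeated quantile normalization. None passed in wt with the spike-in covariate, and 1 (Kcna1) with the GAPDH covariate. For these fits, too, the share of all genes is not given.

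**Figure D1:**
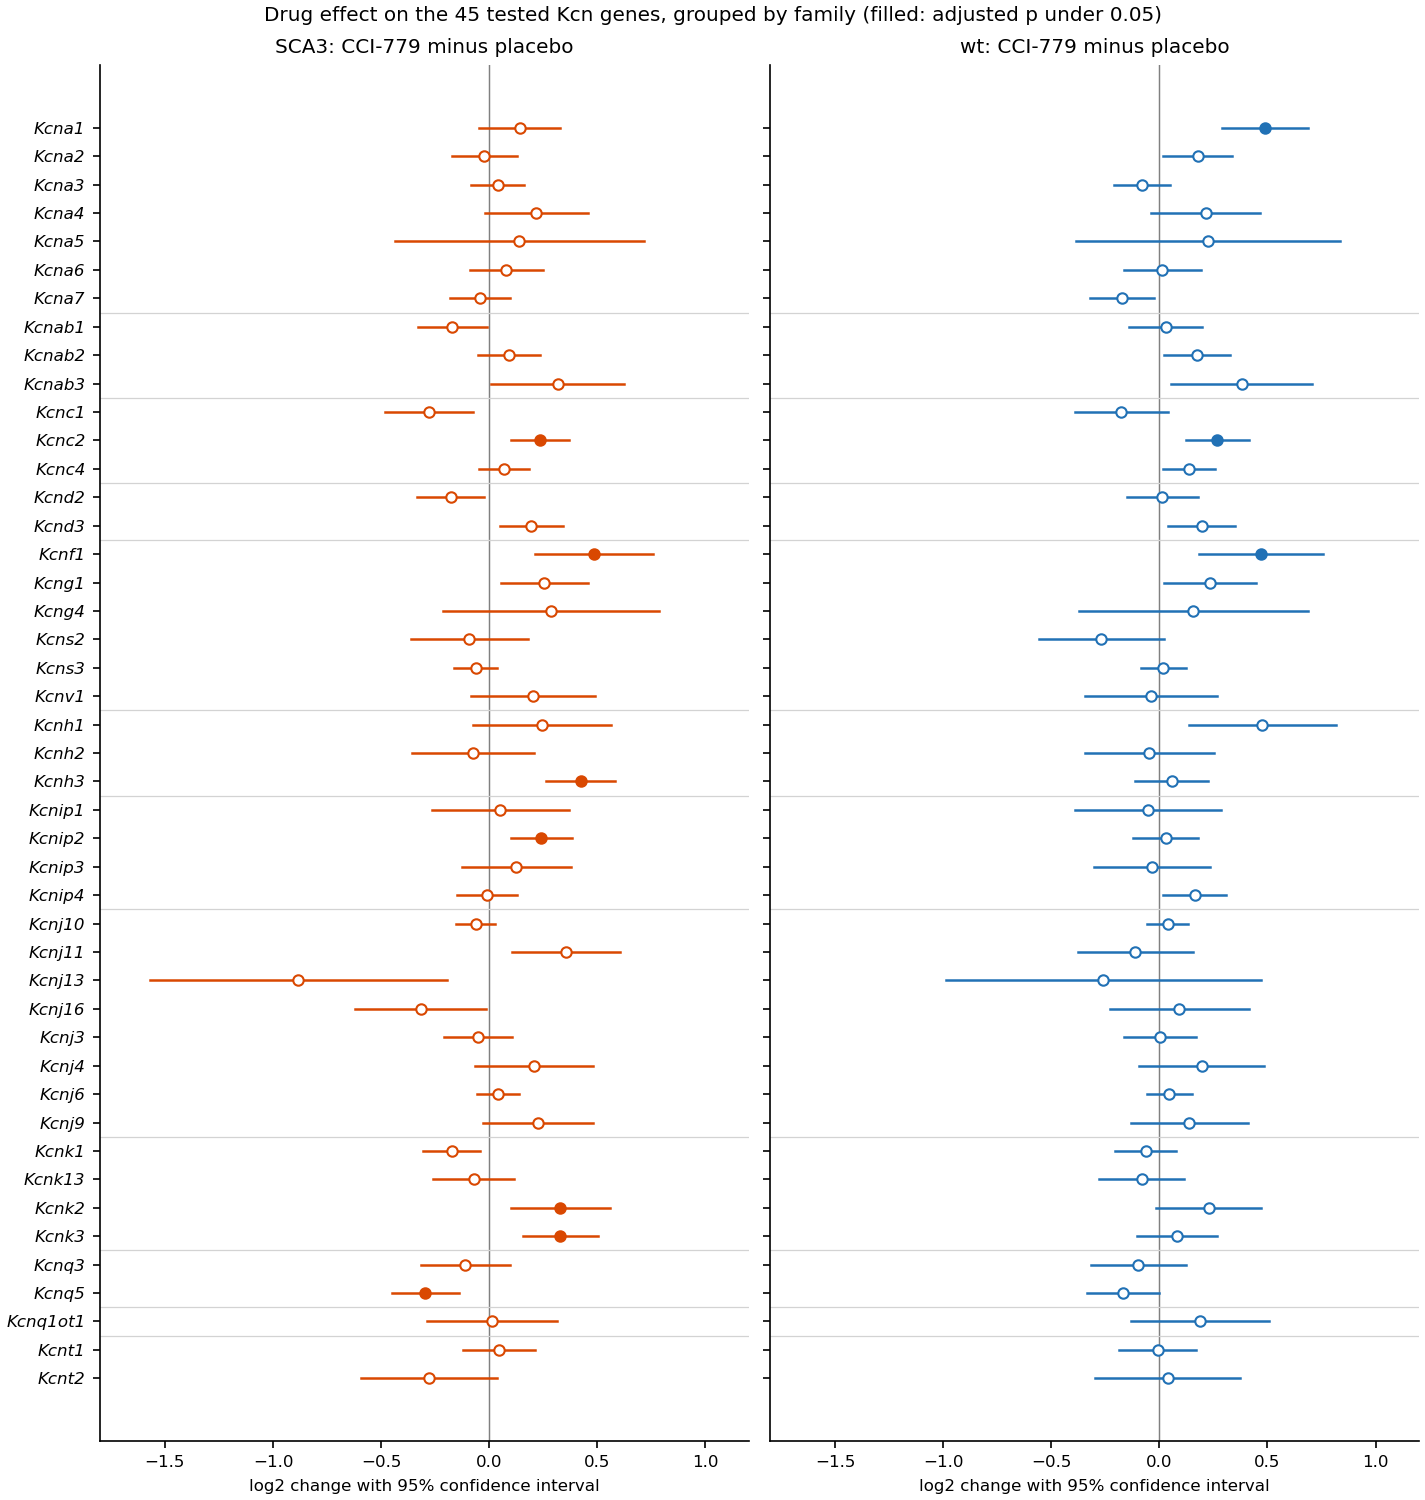
Change of each of the 45 tested genes under CCI-779, with its 95% confidence interval, in SCA3 (left) and wt mice (right); the horizontal axis is the log2 change, and grey lines part the families. Filled points passed an adjusted p of 0.05: 7 genes in SCA3 and 3 in wt, and most other intervals include 0.

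The sequences just before 3 of these genes are shown, since Kcnf1 and Kcnc2 rose in both genotypes while Kcnq5 fell in SCA3. They are the 250 bases before the transcript start in RefSeq's table on GRCm38.p6, written 5′ to 3′ on the strand of the gene, with the only motif found in capitals. Kcnf1 lies on the minus strand at chr12:17176889-17177138, Kcnc2 on the plus strand at chr10:112269767-112270016 and Kcnq5 on the minus strand at chr1:21962651-21962900. The Kcnc2 window starts from a transcript whose start is 119 bases from that of the gene.
Kcnf1: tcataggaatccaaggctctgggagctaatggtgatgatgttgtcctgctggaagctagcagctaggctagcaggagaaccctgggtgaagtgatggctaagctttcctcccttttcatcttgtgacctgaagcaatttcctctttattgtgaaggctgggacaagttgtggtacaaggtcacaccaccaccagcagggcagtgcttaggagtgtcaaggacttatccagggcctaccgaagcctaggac
Kcnc2: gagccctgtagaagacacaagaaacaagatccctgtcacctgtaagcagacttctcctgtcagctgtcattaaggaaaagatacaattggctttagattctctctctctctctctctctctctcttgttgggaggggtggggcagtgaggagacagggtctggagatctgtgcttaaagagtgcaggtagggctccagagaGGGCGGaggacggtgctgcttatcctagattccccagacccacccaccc
Kcnq5: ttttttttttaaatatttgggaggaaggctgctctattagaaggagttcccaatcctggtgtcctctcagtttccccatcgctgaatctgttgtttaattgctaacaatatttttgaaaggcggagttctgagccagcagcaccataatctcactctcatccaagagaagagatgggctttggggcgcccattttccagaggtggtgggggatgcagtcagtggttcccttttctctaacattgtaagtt
The capitals in the Kcnc2 window mark a GC box, GGGCGG, searched on both strands. It stood in the windows of 14 of the 35 tested members in that table (40%), of 61.1% of 8491 tested genes and of 33.0% of all 27025 promoters. The TATA box TATAAA was found before Kcnj13 and Kcnj9, 2 of 35 members (5.71%, against 5.96% of tested genes and 13.0% of all promoters). The E-box CACGTG, in 8.79% of tested genes, and the cAMP response element TGACGTCA, in 2.87%, were in none of the 35 windows; they were in 6.04% and 1.60% of all promoters. The member windows held a median of 8 CpG dinucleotides and those of tested genes 17. Kcnh3, Kcnk3 and Kcna1 were not among the matched genes.

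The Shaker-type delayed rectifiers (Kcna) shape the action potential along axons and at terminals, and loss of Kcna1 function causes episodic ataxia. Of 7 tested genes none passed in SCA3 and 1, Kcna1, passed in wt. Kcna1 read 12.16, 12.04, 11.88 and 11.70 on the 4 wt placebo arrays and 12.44, 12.37, 12.58, 12.45 and 12.33 on the 5 wt CCI-779 arrays. In SCA3 it read 12.18, 12.06, 12.34, 12.08 and 12.29 under placebo and 12.29, 12.29, 12.33, 12.56 and 12.17 under CCI-779. All wt CCI-779 arrays lay above all wt placebo arrays, and the SCA3 groups overlapped. The rise in wt was 0.49 (SE 0.09, adjusted p = 0.00447), or 0.48 (adjusted p = 0.00999) without wt CCI-779 replicate 1, and the change in SCA3 was 0.14 (SE 0.09, adjusted p = 0.304). Of the other probe sets of Kcna1, the one with a mean of 10.85 showed −0.07 in wt and the one with 10.74 showed −0.16. Their mean with the brightest one did not pass (0.09).

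Kcna7, a Shaker-type gene better known from muscle, was dim. It read 4.71, 4.98, 5.08 and 4.70 in wt placebo, 4.71, 4.72, 4.67, 4.69 and 4.68 in wt CCI-779, 4.75, 4.89, 4.71, 4.71 and 4.69 in SCA3 placebo and 4.73, 4.73, 4.70, 4.67 and 4.71 in SCA3 CCI-779. Only wt placebo replicates 2 and 3 and SCA3 placebo replicate 2 stood above an otherwise flat level. The change of −0.17 in wt (SE 0.07, adjusted p = 0.11) missed the threshold, as did that in SCA3 (−0.04, adjusted p = 0.715). The Kv beta subunits (Kcnab), which bind Shaker-type channels and speed their inactivation, had 3 tested genes. None passed, with changes from −0.17 to 0.32 in SCA3 and from 0.03 to 0.38 in wt. Kcnab2, the brightest, had a mean of 10.73 ± 0.09 (SD, n = 4) with placebo and 10.90 ± 0.07 (SD, n = 5) with CCI-779 in wt mice, and of 10.79 ± 0.14 (SD, n = 5) and 10.88 ± 0.09 (SD, n = 5) in SCA3 mice.

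The Shaw-type channels (Kcnc) repolarise fast and let interneurons and cerebellar neurons fire at high rates. Kcnc2 read 11.04, 10.74, 10.83, 10.72 and 10.80 in SCA3 placebo and 11.11, 11.03, 11.13, 11.05 and 10.99 in SCA3 CCI-779. In wt it read 10.76, 11.04, 10.94 and 10.89 under placebo and 11.19, 11.28, 11.16, 11.12 and 11.12 under CCI-779. All wt CCI-779 arrays exceeded all wt placebo arrays, and in SCA3 only placebo replicate 1 reached into the CCI-779 range. Kcnc2 rose by 0.24 in SCA3 (SE 0.06, adjusted p = 0.0214) and by 0.27 in wt (SE 0.07, adjusted p = 0.0187). With SCA3 CCI-779 replicates 2 and 5 left out the rise in SCA3 was 0.27 (adjusted p = 0.0491), and that in wt was 0.26 (adjusted p = 0.0345) without wt CCI-779 replicate 1. The call in SCA3 was lost on centring (0.18, adjusted p = 0.137) and without SCA3 placebo replicate 2 or 4 (adjusted p up to 0.0601), and that in wt on quantile normalization (0.23, adjusted p = 0.0635), on centring (0.16, adjusted p = 0.202) and with the GAPDH difference as a covariate (0.25, adjusted p = 0.0862).

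Kcnc1, the Shaw-type channel abundant in cerebellar granule cells, did not pass on its brightest probe set. That probe set read 11.59, 11.77, 11.81, 11.72 and 11.78 in SCA3 placebo and 11.36, 11.49, 11.44, 11.38 and 11.61 in SCA3 CCI-779. The wt arrays gave 11.77, 11.69, 11.33 and 11.83 under placebo and 11.64, 11.21, 11.56, 11.38 and 11.63 under CCI-779. All but 1 SCA3 CCI-779 array lay below the SCA3 placebo arrays, while the wt groups overlapped. The changes were −0.28 in SCA3 (SE 0.10, adjusted p = 0.0589) and −0.18 in wt (adjusted p = 0.267). Of the 8 cerebellar granule and Purkinje cell markers none passed in either genotype, and their summed intensity was 25155 to 35383 in SCA3 CCI-779, 32010 to 40377 in SCA3 placebo, 20986 to 36318 in wt CCI-779 and 18486 to 40497 in wt placebo. The lowest sums, on wt placebo replicate 3 (18486) and wt CCI-779 replicate 2 (20986), were on the arrays with the lowest Kcnc1 values (11.33 and 11.21). The part of these markers in the Kcnc1 values was not tested. In such bulk tissue, fewer cells of a type and less RNA per cell cannot be told apart.

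A dimmer probe set of Kcnc1 (mean 6.91) went the other way in SCA3. It read 6.53, 6.49, 6.69, 6.40 and 6.27 under placebo and 6.82, 8.80, 7.01, 7.07 and 7.90 under CCI-779, a rise of 1.04 (SE 0.28, adjusted p = 0.0192). The groups did not overlap, and replicates 2 and 5, the arrays with high cortical markers, were the highest. Without them the difference was 0.49 and did not pass (adjusted p = 0.0875). The third probe set of Kcnc1 showed −0.04 (adjusted p = 0.768). Kcnc4, the other tested Shaw-type gene, showed 0.07 in SCA3 and 0.14 in wt without passing.

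**Figure D2:**
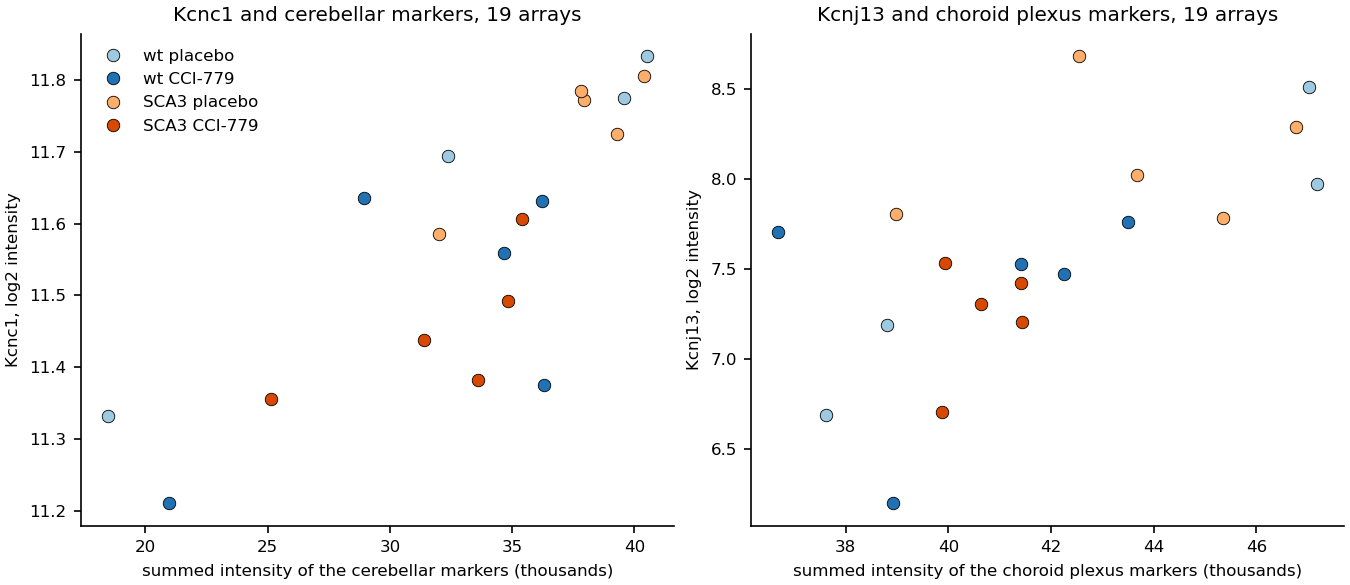
Log2 intensity of Kcnc1 against the summed linear intensity of 8 cerebellar markers (left) and of Kcnj13 against that of 6 choroid plexus markers (right), with sums scaled down as the axis labels say, 1 point per array and colours for the 4 groups. The arrays with cerebellar sums of 18486 and 20986 have the lowest Kcnc1 values, 11.33 and 11.21.

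Silent subunits (Kcnf, Kcng, Kcns, Kcnv) form no channel alone and modify Shab-type channels. No Shab-type gene (Kcnb) was among the members. Of 6 tested genes 1, Kcnf1, rose in each genotype. Kcnf1 read 9.33, 8.93, 8.96, 9.02 and 9.16 in SCA3 placebo and 9.81, 9.36, 9.44, 9.51 and 9.70 in SCA3 CCI-779. In wt the values were 9.08, 8.98, 9.12 and 8.91 under placebo and 9.94, 9.61, 9.52, 9.30 and 9.10 under CCI-779. The SCA3 groups did not overlap, and in wt only CCI-779 replicate 5 fell within the placebo range. The rise was 0.49 in SCA3 (SE 0.13, adjusted p = 0.018) and 0.47 in wt (SE 0.14, adjusted p = 0.034). With SCA3 CCI-779 replicates 2 and 5 left out it was 0.51 in SCA3 and did not pass (adjusted p = 0.0607). Without wt CCI-779 replicate 1, its highest array, it was 0.36 in wt and did not pass (adjusted p = 0.0723). The wt call was also lost without wt CCI-779 replicate 2 or 3 or wt placebo replicate 2, 3 or 4 (adjusted p up to 0.0921), and it held in 4 of 12 settings that changed the scaling, filter, covariates or samples. A dimmer probe set of Kcnf1 showed 0.04 in SCA3 and −0.15 in wt.

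Kcns2, another silent subunit, had 1 of the 3 smallest p-values between the genotypes under placebo, counting the brightest probe set of each gene. It read 8.82, 9.38, 9.21 and 9.03 in wt placebo and 8.85, 8.81, 8.56, 8.88 and 8.70 in SCA3 placebo. On the CCI-779 arrays the values were 9.12, 8.98, 8.79, 8.77 and 8.56 in wt and 8.57, 8.57, 8.83, 9.01 and 8.37 in SCA3. All wt placebo arrays but replicate 1 lay above all SCA3 placebo arrays. The genotype difference of −0.35 (SE 0.14, adjusted p = 0.764) missed the threshold, and its interval ran from −0.64 to −0.06.

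Shal-type channels (Kcnd) carry the A-type current of dendrites, and the calcium-binding KChIP proteins (Kcnip) join them and raise their surface level. Neither of the 2 tested Kcnd genes passed. Kcnd3 read 10.11, 10.21, 10.17, 10.21 and 10.11 in SCA3 placebo and 10.46, 10.35, 10.31, 10.42 and 10.25 in SCA3 CCI-779. In wt the values were 10.26, 10.10, 10.33 and 10.09 under placebo and 10.58, 10.26, 10.39, 10.49 and 10.25 under CCI-779. The SCA3 groups did not overlap, yet the change of 0.19 missed the threshold (SE 0.07, adjusted p = 0.0666), as did that of 0.20 in wt (SE 0.07, adjusted p = 0.0868). The other tested probe set of Kcnd3 showed −0.14 in SCA3 and −0.47 in wt, without passing. Kcnd2, the brightest of the family, averaged 11.70 ± 0.07 (SD, n = 5) in SCA3 placebo and 11.53 ± 0.14 (SD, n = 5) in SCA3 CCI-779 (adjusted p = 0.109), with 11.69 and 11.71 in wt.

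On their brightest probe sets, 1 of the 4 KChIP genes rose in SCA3 and none passed in wt. Kcnip2 read 10.17, 10.06, 10.31, 10.11 and 10.14 in SCA3 placebo and 10.44, 10.53, 10.22, 10.39 and 10.41 in SCA3 CCI-779. The wt values were 10.25, 10.21, 10.35 and 10.10 under placebo and 10.34, 10.34, 10.20, 10.23 and 10.17 under CCI-779. In SCA3 all CCI-779 arrays but replicate 3 lay above the placebo range, and the wt groups overlapped. Kcnip2 rose by 0.24 in SCA3 (SE 0.07, adjusted p = 0.0219), against 0.03 in wt (SE 0.07, adjusted p = 0.817). With SCA3 CCI-779 replicates 2 and 5 left out the SCA3 change was 0.19 and did not pass (adjusted p = 0.14). Nor did it pass on quantile normalization (0.20, adjusted p = 0.0515), on centring (0.18, adjusted p = 0.0903), on the mean of its probe sets (0.15, adjusted p = 0.625), with the GAPDH difference as a covariate (0.20, adjusted p = 0.0569) or without SCA3 placebo replicate 2 or 4 or SCA3 CCI-779 replicate 2 (adjusted p up to 0.0645). The other tested probe set of Kcnip2 showed 0.06 in SCA3 and −0.52 in wt, without passing.

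Counting only the brightest probe set of each gene, Kcnip4 had the smallest p between the genotypes under placebo. It read 10.91, 10.70, 10.50 and 10.79 in wt placebo and 10.90, 10.92, 10.99, 10.87 and 11.01 in SCA3 placebo. Under CCI-779 it read 10.95, 10.82, 10.92, 10.85 and 10.90 in wt and 10.99, 10.82, 10.97, 10.91 and 10.96 in SCA3. Wt placebo replicates 2, 3 and 4 were the lowest of all 19 arrays, and replicate 1 lay within the SCA3 range. The genotype difference was 0.21 and did not pass (SE 0.07, adjusted p = 0.655).

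The ether-a-go-go superfamily (Kcnh) includes the elk branch, active near the resting potential of forebrain neurons, to which Kcnh3 belongs. Kcnh3 read 6.78, 6.88, 6.76, 6.89 and 7.06 in SCA3 placebo and 7.35, 7.30, 7.14, 7.20 and 7.50 in SCA3 CCI-779. On wt arrays it was at 7.02, 6.89, 7.11 and 6.87 under placebo and 7.04, 7.15, 6.97, 7.06 and 6.93 under CCI-779. All SCA3 CCI-779 arrays lay above all SCA3 placebo arrays, and the wt groups overlapped. Kcnh3 rose by 0.42 in SCA3 (SE 0.08, adjusted p = 0.00193), and the wt change was 0.06 (SE 0.08, adjusted p = 0.673). With SCA3 CCI-779 replicates 2 and 5 left out the rise was 0.35 (adjusted p = 0.0211), and it passed in all 19 fits that left out 1 array. With the spike-in covariate it was 0.57 with an SE of 0.14 and did not pass (adjusted p = 0.187).

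A second probe set of Kcnh3 (mean 6.75) rose as well. It read 6.28, 6.69, 6.48, 6.42 and 6.29 in SCA3 placebo and 7.10, 7.41, 6.76, 7.36 and 7.68 in SCA3 CCI-779, a change of 0.83 (SE 0.17, adjusted p = 0.00368). The groups did not overlap, and the change was 0.64 without SCA3 CCI-779 replicates 2 and 5 (adjusted p = 0.0451). In wt it read 6.69, 5.90, 6.68 and 6.38 under placebo and 6.79, 6.76, 6.70, 7.17 and 6.66 under CCI-779, a change of 0.40 that did not pass (adjusted p = 0.144). The third probe set was flat, between 5.68 and 6.19 on all arrays. The name of the brightest probe set ends in x_at, which marks probes that may also bind other transcripts.

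Kcnh1, the founding ether-a-go-go channel, disagreed between its probe sets in wt. The brightest read 8.84, 8.17, 8.56 and 8.71 in wt placebo and 9.53, 8.96, 9.06, 9.18 and 8.52 in wt CCI-779. In SCA3 it read 8.78, 8.85, 8.81, 9.06 and 8.95 under placebo and 9.02, 9.38, 8.95, 9.13 and 9.20 under CCI-779. All wt CCI-779 arrays but replicate 5 exceeded the wt placebo arrays, and the change of 0.48 (SE 0.16, adjusted p = 0.0609) missed the threshold. The dimmer one (mean 5.58) read 5.91, 6.06, 6.09 and 6.15 in wt placebo and 5.67, 5.16, 5.59, 5.02 and 5.70 in wt CCI-779, with no overlap. It fell by 0.62 (SE 0.16, adjusted p = 0.0187), and by 0.68 without wt CCI-779 replicate 1 (adjusted p = 0.0188). In SCA3 that probe set read 5.08, 5.06, 5.41, 5.56 and 5.69 under placebo and 5.27, 5.80, 5.75, 5.44 and 5.61 under CCI-779, a change of 0.21 (adjusted p = 0.359). All 4 wt placebo arrays thus lay above the arrays of the other 3 groups. The genotype difference under placebo was −0.69 (SE 0.16, adjusted p = 0.369) and the interaction 0.84 (SE 0.22, adjusted p = 0.518), the largest interaction of the 84 member probe sets, and neither passed.

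The Kcnq channels carry the M-current, which holds neurons below threshold and is closed by muscarinic receptors. Kcnq5 read 10.11, 10.01, 10.03, 10.08 and 10.03 in SCA3 placebo and 9.81, 9.61, 9.87, 9.80 and 9.71 in SCA3 CCI-779. The wt arrays gave 10.01, 10.27, 10.23 and 10.06 under placebo and 10.15, 10.01, 9.92, 10.06 and 9.74 under CCI-779. All SCA3 CCI-779 arrays lay below all SCA3 placebo arrays, and the wt groups overlapped. Kcnq5 fell by 0.29 in SCA3 (SE 0.07, adjusted p = 0.0135), and the wt change was −0.17 (SE 0.08, adjusted p = 0.167). With SCA3 CCI-779 replicates 2 and 5 left out the change was −0.23 and did not pass (adjusted p = 0.113), nor did the mean of its probe sets (−0.11, adjusted p = 0.568).

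A second probe set of Kcnq5 (mean 7.91) read 8.34, 8.02, 7.93, 7.94 and 8.02 in SCA3 placebo and 7.64, 7.34, 7.75, 7.35 and 7.61 in SCA3 CCI-779, again without overlap. It fell by 0.51 (SE 0.09, adjusted p = 0.00201) and passed without SCA3 CCI-779 replicates 2 and 5 too (−0.47, adjusted p = 0.0189). The wt arrays of this probe set were at 7.93, 8.12, 8.08 and 8.03 under placebo and 7.93, 8.19, 8.01, 8.08 and 7.88 under CCI-779, all above the SCA3 CCI-779 arrays, with a drug change of −0.02 (adjusted p = 0.918). The dimmest probe set went the other way in SCA3, by 0.48, without passing (adjusted p = 0.3), and showed −0.24 in wt. Kcnq3, the partner subunit and the brightest of the family, averaged 10.84 ± 0.07 (SD, n = 5) in SCA3 placebo and 10.73 ± 0.15 (SD, n = 5) in SCA3 CCI-779, and did not pass (adjusted p = 0.483); in wt it averaged 10.94 and 10.84.

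**Figure D3:**
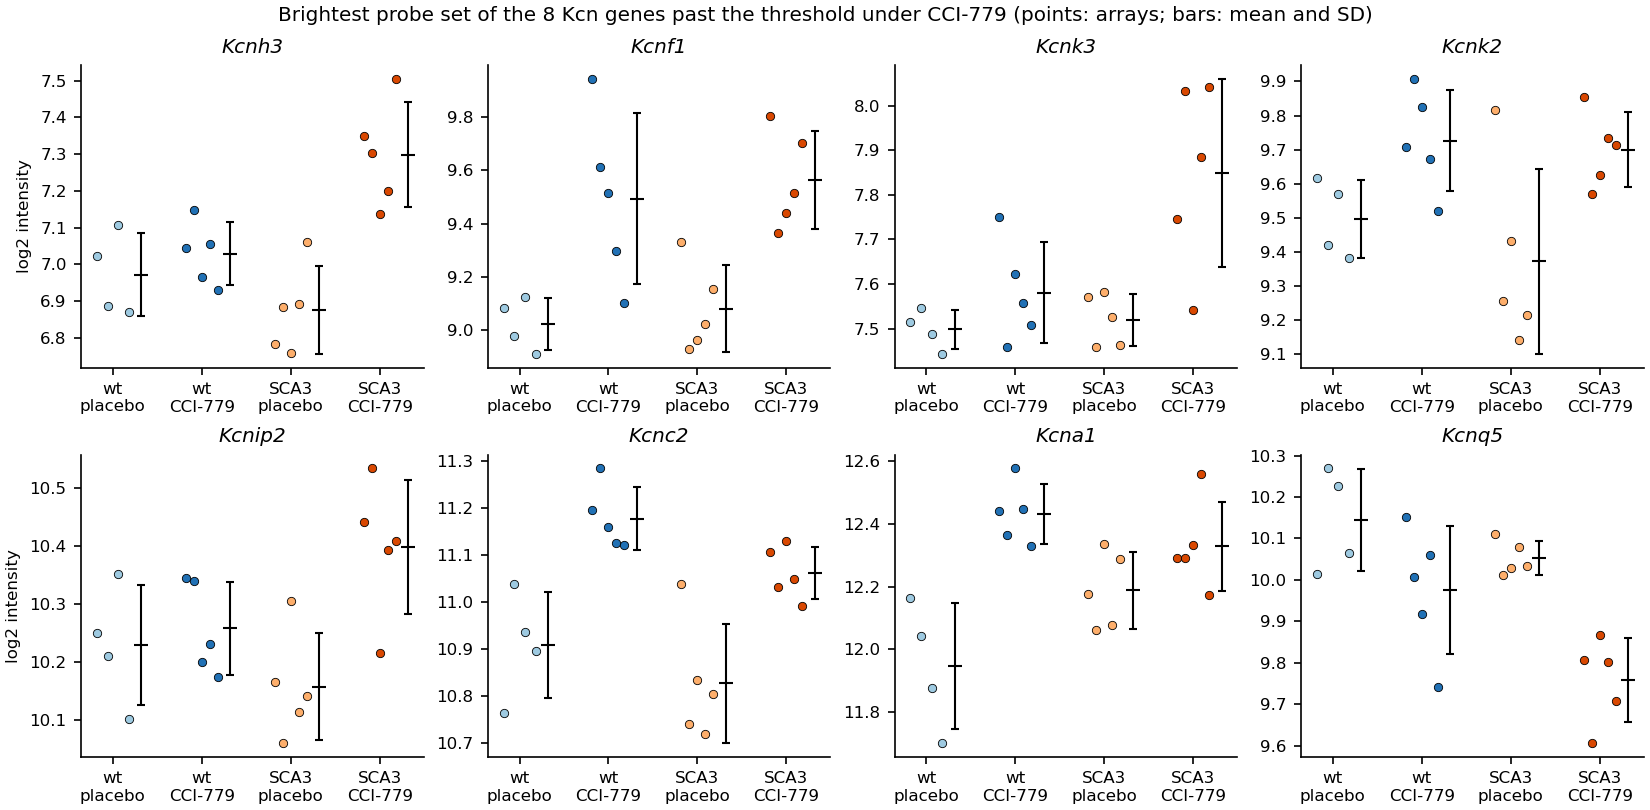
Log2 intensity of the brightest probe set of the 8 genes that passed in at least 1 drug comparison, with 1 point per array in each of the 4 groups and bars for the mean and SD; the vertical scale differs between panels and does not start at 0. The SCA3 CCI-779 points of Kcnh3 and Kcnf1 all lie above those of SCA3 placebo, and those of Kcnq5 all lie below.

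Tandem-pore channels (Kcnk) carry the background leak of potassium. Of 4 tested genes 2, Kcnk3 and Kcnk2, rose in SCA3, and none passed in wt. Kcnk3, an acid-sensitive leak channel, read 7.57, 7.46, 7.58, 7.53 and 7.46 in SCA3 placebo and 7.75, 8.03, 7.54, 7.89 and 8.04 in SCA3 CCI-779. The wt values were 7.51, 7.55, 7.49 and 7.44 under placebo and 7.75, 7.46, 7.62, 7.56 and 7.51 under CCI-779. Replicates 2 and 5 of SCA3 CCI-779 were the highest of all arrays, and replicate 3 lay within the placebo range. Kcnk3 rose by 0.33 (SE 0.08, adjusted p = 0.0131), and without replicates 2 and 5 the change was 0.20 and did not pass (adjusted p = 0.13). On those 2 arrays the cortical neuron markers were also high; 0 of the 6 tested ones passed in SCA3, and their part in the Kcnk3 values was not tested.

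Kcnk2, a leak channel opened by stretch and lipids, read 9.82, 9.26, 9.43, 9.14 and 9.21 in SCA3 placebo and 9.85, 9.57, 9.63, 9.73 and 9.71 in SCA3 CCI-779. On wt arrays it was at 9.62, 9.42, 9.57 and 9.38 under placebo and 9.71, 9.91, 9.83, 9.67 and 9.52 under CCI-779. SCA3 placebo replicate 1 was nearly as high as the highest treated array, and the other 4 lay below all treated ones. The rise of 0.33 in SCA3 was close to the threshold (SE 0.11, adjusted p = 0.0497) and passed in only 3 of 19 fits that left out 1 array, where the adjusted p reached 0.129, and in 4 of 12 other settings; in wt the change was 0.23 (SE 0.12, adjusted p = 0.197). Kcnk1, a weak inward-rectifying leak channel and the brightest of the family, read 11.04, 11.14, 11.19, 11.10 and 11.19 in SCA3 placebo and 10.85, 11.02, 10.91, 11.10 and 10.91 in SCA3 CCI-779. In wt it read 11.36, 11.16, 11.10 and 11.24 under placebo and 11.11, 11.05, 11.19, 11.28 and 11.14 under CCI-779. All SCA3 CCI-779 arrays but replicate 4 lay below all SCA3 placebo arrays, and the change of −0.17 (SE 0.06, adjusted p = 0.0687) missed the threshold.

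Among the inward rectifiers (Kcnj), none of 8 tested genes passed in either genotype on its brightest probe set. Kcnj11, the pore of ATP-sensitive channels, read 8.08, 8.07, 8.25, 8.22 and 7.61 in SCA3 placebo and 8.37, 8.71, 8.16, 8.34 and 8.42 in SCA3 CCI-779. The wt arrays gave 8.16, 8.06, 8.16 and 8.33 under placebo and 7.93, 8.19, 7.84, 8.20 and 8.19 under CCI-779. SCA3 placebo replicate 5 was the lowest array, and SCA3 CCI-779 replicate 2 the highest. The change of 0.35 in SCA3 narrowly missed the threshold (SE 0.12, adjusted p = 0.0529), and that in wt was −0.11 (SE 0.13, adjusted p = 0.591). The other tested probe set of Kcnj11 showed −0.03 in SCA3 and −0.33 in wt, without passing.

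Kcnj13 serves the apical membrane of the choroid plexus. It read 7.81, 7.78, 8.02, 8.29 and 8.69 in SCA3 placebo and 7.21, 6.70, 7.53, 7.42 and 7.31 in SCA3 CCI-779. The wt values were 7.97, 7.19, 6.69 and 8.51 under placebo and 7.71, 6.20, 7.53, 7.76 and 7.47 under CCI-779. The SCA3 groups did not overlap, and the wt groups varied widely, from 6.69 to 8.51 within placebo alone. The change in SCA3 was −0.88, the largest among the brightest probe sets of the members, and did not pass (SE 0.33, adjusted p = 0.0761); in wt it was −0.26 (SE 0.35, adjusted p = 0.651). Of the 6 tested choroid plexus markers none passed in either genotype, with sums of 39883 to 41429 in SCA3 CCI-779, 38974 to 46770.4 in SCA3 placebo, 36693 to 43499 in wt CCI-779 and 37615 to 47175 in wt placebo. Their part in the Kcnj13 values was not tested.

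Kcnj10 and Kcnj16 form the potassium-buffering channel of astrocytes. Kcnj10 was the steadiest member, between 9.69 and 9.92 on all 19 arrays, and did not pass in SCA3 (−0.06, adjusted p = 0.351) or in wt (0.04, adjusted p = 0.611). The brightest probe set of Kcnj16 showed −0.32 in SCA3 and 0.09 in wt without passing. The other (mean 5.98), only a little dimmer, read 6.16, 6.43, 6.13, 6.32 and 6.45 in SCA3 placebo and 5.73, 5.68, 5.97, 5.56 and 5.46 in SCA3 CCI-779, with no overlap, and 6.85, 6.28, 6.08 and 6.27 in wt placebo and 4.92, 5.72, 5.72, 5.43 and 6.35 in wt CCI-779. It fell by 0.62 in SCA3 (SE 0.20, adjusted p = 0.0431) and by 0.74 in wt (SE 0.21, adjusted p = 0.0295). Neither passed without the arrays that stood apart: −0.54 without SCA3 CCI-779 replicates 2 and 5 (adjusted p = 0.193) and −0.57 without wt CCI-779 replicate 1 (adjusted p = 0.0602).

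Kcnj9, a subunit of the G-protein-gated channels, passed only on its dimmer probe set (mean 8.53). That probe set read 8.07, 8.37, 8.54, 8.30 and 8.33 in SCA3 placebo and 8.56, 8.98, 8.64, 8.73 and 8.94 in SCA3 CCI-779, above it on every array. It rose by 0.45 (SE 0.12, adjusted p = 0.0219), or by 0.32 with replicates 2 and 5 of SCA3 CCI-779 left out (adjusted p = 0.182), and the brightest one showed 0.23 (adjusted p = 0.221). Kcnj3, its partner and the brightest of the family, averaged 10.89 ± 0.11 (SD, n = 5) in SCA3 placebo and 10.84 ± 0.15 (SD, n = 5) in SCA3 CCI-779 (adjusted p = 0.691), with 11.01 and 11.01 in wt. The sodium-activated Kcnt1 passed in wt on its dimmest probe set alone (mean 5.20). It read 5.18, 4.99, 4.75 and 5.17 in wt placebo and 5.52, 5.17, 5.36, 5.48 and 5.18 in wt CCI-779, groups that overlapped, and rose by 0.32 (SE 0.09, adjusted p = 0.0284; 0.28 with an adjusted p of 0.0668 without wt CCI-779 replicate 1). The brightest probe set of Kcnt1 showed −0.01 in wt and 0.05 in SCA3. Kcnq1ot1 showed 0.01 in SCA3 and 0.19 in wt without passing.

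**Figure D4:**
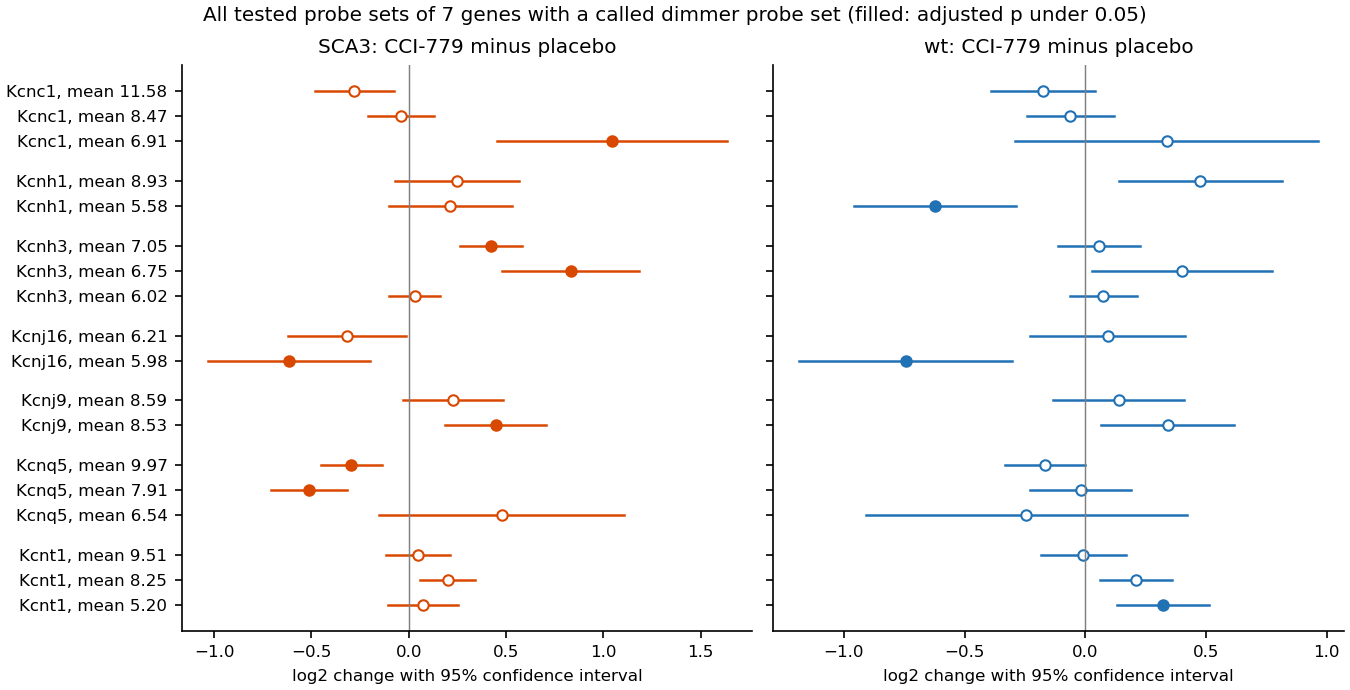
Log2 change under CCI-779 with its 95% confidence interval for every tested probe set of the 7 genes with a dimmer probe set past the threshold, in SCA3 (left) and wt (right); labels give the mean log2 intensity, and filled points passed. In Kcnc1 (SCA3) and in Kcnh1, Kcnj16 and Kcnt1 (wt) the filled point lies on the other side of 0 from the brightest probe set, which in Kcnt1 is at −0.01.

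Counted by probe set, 9 of the 84 rose and 3 fell in SCA3, against 10.2% and 4.95% of all tested probe sets, and 4 rose and 2 fell in wt, against 9.78% and 2.11%. Of the 27 genes with more than 1 tested probe set, the changes had both signs in 11 genes in SCA3 and in 18 in wt. Groups that did not overlap were found in SCA3 for 3 of 45 genes with all treated arrays above (background 8.82%) and for 2 with all below (4.34%). In wt they were found for 4 genes above (14.1%), Kcna1, Kcnc2, Kcnc4 and Kcng1, and for none below (2.42%).

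One array stood apart in the dimmer probe sets. On wt CCI-779 replicate 1, 6 of the 84 member probe sets (7.14%) lay more than 1 log2 unit below all other arrays, against 497 of all 20473 (2.43%); on each of the other 18 arrays no member did. They belonged to Kcna2, Kcnip2, Kcnab2, Kcnd3, Kcnip3 and Kcnab1, and none was the brightest of its gene. The largest was in Kcnab2, whose dimmer probe set read 5.13 there. Its wt drug difference was −1.26 with that array and −0.25 without it, and that of the dimmer Kcnip3 probe set was −1.10 and −0.50. In SCA3 this Kcnip3 probe set changed by −1.04, the largest fall of the 84, and did not pass (SE 0.49, adjusted p = 0.158). The fit pools its error over all groups. Dropping wt CCI-779 replicate 1 left the SCA3 change as it was, and it then passed (SE 0.28, adjusted p = 0.0159). Once replicates 2 and 5 of SCA3 CCI-779 were dropped too, it was −0.96 and did not pass (adjusted p = 0.0813).

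**Figure D5:**
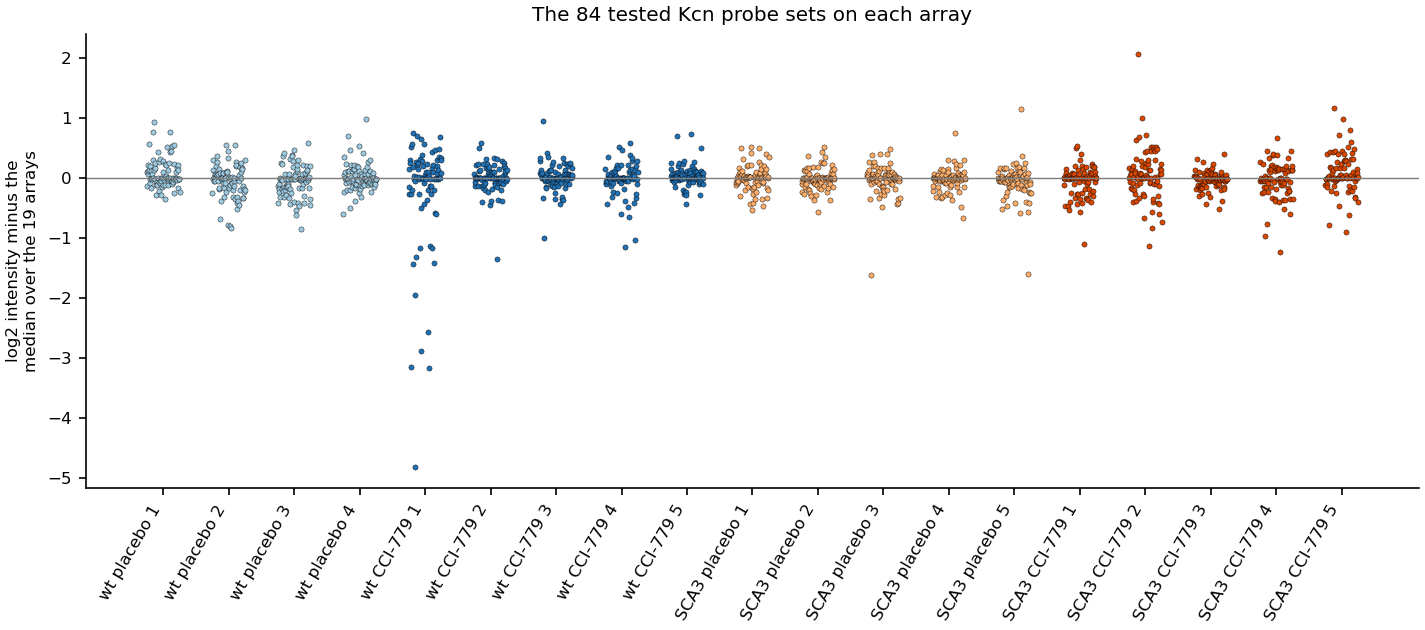
Log2 intensity of each of the 84 tested member probe sets minus its median over the 19 arrays, with 1 column of points per array. Most points lie within 1 unit of 0, and wt CCI-779 replicate 1 has a tail reaching below −4.

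Between SCA3 and wt mice given placebo no member passed, at a background of 0% of genes and 0.00977% of probe sets (2 in all). On the brightest probe sets the groups lay apart for no gene, against 1.48% of all genes with SCA3 above wt and 0.727% with SCA3 below; of all 84 probe sets 1 lay apart, the dimmer one of Kcnh1. At an unadjusted p under 0.05 there were 3 genes (6.67%), against 5.32% of all genes. These were Kcnip4, Kcna1 and Kcns2. Kcna1 differed by 0.24 (SE 0.09, adjusted p = 0.764; interval 0.04 to 0.44), but by −0.01 on the mean of its probe sets. The median size of the difference was 0.08 in the members and 0.07 in all genes.

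Between SCA3 and wt mice given CCI-779 no member passed, at a background of 0.0191% of genes and 0.00977% of probe sets. On the brightest probe sets the groups overlapped for all 45 genes, against 0.584% of all genes lying apart with SCA3 above wt and 2.42% with SCA3 below. At an unadjusted p under 0.05 there were 12 members (26.7%, against 18.1% of all genes). On the brightest probe sets the smallest p-values were those of Kcnh3 (0.27, SE 0.08, adjusted p = 0.162), Kcnk3 (0.27, SE 0.08, adjusted p = 0.181) and Kcnk1 (−0.19, SE 0.06, adjusted p = 0.187). Over all 84 probe sets the smallest was that of the second Kcnq5 probe set, −0.48 (SE 0.09, adjusted p = 0.111), whose groups did not overlap; without SCA3 CCI-779 replicates 2 and 5 it was −0.44 (adjusted p = 0.401). These comparisons share their arrays with the drug comparisons. Without SCA3 CCI-779 replicates 2 and 5 together, or any single array, still none passed.

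No member showed a drug effect that differed between the genotypes by the interaction test, at a background of 0%. At an unadjusted p under 0.05 there were 4 members (8.89%, against 8.30% of all genes). On the brightest probe sets Kcnh3 came first, with an interaction of 0.37 (SE 0.11, adjusted p = 0.537; interval 0.13 to 0.60), then Kcnj11 with 0.47 (SE 0.17, adjusted p = 0.593), Kcna1 with −0.35 (SE 0.13, adjusted p = 0.594) and Kcnip2 with 0.21 (SE 0.10, adjusted p = 0.645). The dimmer probe set of Kcnh1 and the second of Kcnq5 (−0.49, SE 0.14, adjusted p = 0.518) had smaller p-values and did not pass either. That Kcnh3 passed in SCA3 alone and Kcna1 in wt alone was therefore not shown to be a difference between the genotypes. Over the 45 genes, the drug effects of SCA3 and wt, which share no array, had the same sign in 30 (66.7%, against 72.1% of all genes).

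The listed partner genes, whose proteins anchor, traffic or modify these channels, all passed the filter on dim probe sets. Of 18 partners, 3 rose and 2 fell in SCA3, where 11% of all genes rose and 6.09% fell, and 3 rose and 1 fell in wt, where 11.5% rose and 1.64% fell. These counts are small, and the median change of the partners was 0.06 in SCA3 and 0.09 in wt, against 0.00 and 0.08 for all genes. Dlg2, a scaffold that clusters Shaker-type channels, rose by 0.87 in SCA3 (SE 0.12, adjusted p = 0.000346) and by 0.71 in wt (SE 0.12, adjusted p = 0.00269). Its relative Dlg3 rose by 0.52 (adjusted p = 0.00388) and 0.35 (adjusted p = 0.0492). Lgi1, a secreted protein that binds Adam22 and slows inactivation of Shaker-type channels, fell by 0.40 in SCA3 (adjusted p = 0.00339) and by 0.28 in wt (adjusted p = 0.041). Adam22 itself rose in wt by 0.37 (adjusted p = 0.0386), against 0.28 in SCA3 (adjusted p = 0.0784). Vapb, an endoplasmic reticulum protein that tethers Shab-type channels, rose in SCA3 by 0.55 (adjusted p = 0.00162), and Dpp10, a subunit of Shal-type channels, fell by 0.19 (adjusted p = 0.0467). In fits added after the data were seen, without SCA3 CCI-779 replicates 2 and 5, the change of Dpp10 did not pass (adjusted p = 0.0873), while Dlg2, Dlg3, Lgi1 and Vapb passed. In wt without replicate 1 of CCI-779 only Dlg2 of the 4 still passed, and Dlg3 (0.27, adjusted p = 0.11), Adam22 (0.29, adjusted p = 0.0877) and Lgi1 (−0.21, adjusted p = 0.0846) did not. With the GAPDH covariate, Dpp10 in SCA3 (adjusted p = 0.111) and Dlg3, Adam22 and Lgi1 in wt (adjusted p = 0.345, 0.268 and 0.311) did not pass.

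Of the HCN channels, the cation channels that oppose potassium currents at rest, 2 of 4 were tested and none passed in either genotype. Of 14 genes of the sodium-potassium pump and potassium-chloride transport, 9 were tested. Atp1b2, the glial pump subunit, rose by 0.55 in SCA3 (SE 0.08, adjusted p = 0.00058) and by 0.55 in wt (SE 0.09, adjusted p = 0.00141). The pump regulator Fxyd6 rose in SCA3 by 0.38 (adjusted p = 0.0199), and the chloride importer Slc12a2 fell there by 0.37 (adjusted p = 0.00772). The summed intensity of the 9 genes was 57059 and 56644 on SCA3 CCI-779 replicates 2 and 5 and 39411 to 47775 on the other 17 arrays. Without those 2 arrays, again in added fits, the changes in SCA3 were 0.51 for Atp1b2 (adjusted p = 0.00692), 0.25 for Fxyd6 (adjusted p = 0.175) and −0.28 for Slc12a2 (adjusted p = 0.0819), and only the first passed. The 2 that rose and 1 that fell in SCA3, of 9, and the 1 that rose in wt stand against the same shares of all genes.

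Markers of other cell types also passed in the drug comparisons. Among all tested genes 11% rose and 6.09% fell in SCA3, and 11.5% rose and 1.64% fell in wt. Oligodendrocyte markers fell in SCA3 in 5 of 9 tested, with sums of 73110.3 to 80701 under CCI-779 and 84542 to 110289 under placebo, and in none of 9 in wt (69460.2 to 85053 and 81820 to 98650). Microglial markers fell in 5 of 9 in SCA3 and 3 of 9 in wt, with sums of 3107 to 4064 and 3108 to 3852 under CCI-779, against 4437 to 4824 and 4466 to 5053 under placebo. Meningeal and fibroblast markers rose in 3 of 6 in SCA3 (1382 to 1767 against 905 to 1372) and 1 of 6 in wt (1155 to 1608 against 923 to 1300.3). Of 8 astrocyte markers 1 rose in SCA3 and 2 in wt, and of 8 neuronal markers 1 (Rbfox3) fell in each. Among 6 tested endothelial and mural markers 1 rose in SCA3 and none passed in wt; of 6 striatal markers 2 rose in SCA3 and 1 in wt, and 1 of 6 cortical markers fell in wt. With lists this short, counts of 1 or 2 are not read as a result. Fits that left out arrays are not given for these markers. The part of the markers in the potassium channel results was not tested.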

How the data were processed

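The deposited values are linear microarray intensities, 1 per probe set and array, from Affymetrix arrays of 19 mouse brain samples. The authors made these intensity values with GCRMA, per the submitters' processing notes; the version of GCRMA was not stated. An array has no read depth, so the number of arrays limits the precision. Log2 of the deposited intensity was taken without a pseudocount. GCRMA corrects background and equalises distributions, which can hide a shift common to all genes.

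Groups came from the labels. The tests used limma 3.58.1 in R 4.3.3 with 4 group means and empirical Bayes moderation (prior df 2.59, residual df 15), and Benjamini-Hochberg adjustment over the 20473 of 45037 probe sets whose log2 intensity averaged 4 or more. All adjusted p-values printed are from limma, with a threshold of 0.05, and are two-sided; intervals are 95% confidence intervals. The comparisons were CCI-779 against placebo in each genotype, SCA3 against wt under each treatment, and their interaction. The fit was tested on simulated data. Gene symbols came from the platform annotation: 34945 probe sets had 1 symbol, 932 several and 9160 none, and the Entrez identifiers of all 148 members matched the RefSeq gene table with no symbol changed.

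Members named were those past the threshold in any comparison, or the 3 with the smallest p where fewer passed, those of which only a dimmer probe set passed or whose probe sets passed in opposite directions, the brightest of each family and those next to the filter; of the other lists, each gene that passed. Values on every array are given for the 12 smallest p-values of the drug comparison in SCA3, the 6 in wt and the 3 in each other comparison. Kcnj10, Kcnq1ot1 and Kcnc4 were named after their values were seen. The members and lists were chosen with earlier results of these data known. Alternatives changed the filter, scaling, prior, samples, replicate block, covariates and probe set rule, and left out arrays; fits of list genes and of 2 dimmer probe sets without arrays or with the GAPDH covariate were added after seeing the data. Same-numbered arrays in different groups deviated together no more than others (correlations of −0.31 to 0.29, median 0.03, against −0.37 to 0.34, median −0.01). The arrays were therefore treated as unpaired. Correlations over all probe sets cannot exclude a pairing, and the labels state none. No 2 arrays were identical.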

Additional observations from a re-analysis of the deposited data

Results flagged for a closer look

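A sample stood far from the rest of its group in 5 of 80 checks of a group of 4 or 5 arrays, where chance gives about 1 in 20. The checks pooled 17 genes with the spike-in level and the GAPDH and actin differences. Most of the flags were on these array measures, which made up the smaller part of the checks. The pooled rate therefore does not describe the array measures. Kcnj11, the pore of ATP-sensitive channels, read 7.61 on SCA3 placebo replicate 5, with the nearest array of the group at 8.07. Kcnj13, the choroid plexus rectifier, read 6.20 on wt CCI-779 replicate 2, the array with the low cerebellar marker sum of 20986, with the nearest at 7.47. The 3′ minus 5′ difference (log2) of the control probe sets, a measure of RNA integrity and labelling, stood apart on wt CCI-779 replicate 1, at 0.28 for GAPDH (nearest −0.39) and 2.55 for actin (nearest 1.53). On SCA3 placebo replicate 4 the GAPDH difference was −0.47, with the nearest at −0.52.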

How the results depend on the processing

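The 7 member genes that passed in SCA3 numbered 0 with the spike-in covariate, 2 without SCA3 CCI-779 replicates 2 and 5, 6 (none lower) when wt CCI-779 replicate 1 was left out with them, and 6 to 9 under the other settings that kept all arrays. Leaving out 1 array gave 4 to 10, with 4 without SCA3 placebo replicate 2 or 4 and 10 without wt CCI-779 replicate 1. The 3 genes in wt numbered 1 on quantile normalization, on centring, on the mean of the probe sets and with the GAPDH covariate, and 0 with the spike-in covariate. Leaving out 1 array gave 2 to 6, with 5 without wt CCI-779 replicate 5 and 6 without wt placebo replicate 1. With the replicate number as a block the counts were 8 in SCA3 and 3 in wt. The labels state no pairing by number, and the block was run for completeness. Between genotypes and for the interaction the count was 0 under every alternative run. The share of all genes that passed is not given for these settings, so these counts are not read as a result about the members. Of 586 values of the genes listed under alternatives, 517 kept direction and side of the threshold, 68 kept direction but no longer passed, and 1 reversed: Kcna1 between genotypes under placebo was −0.0082 on the mean of its probe sets. Kcnc1 and Kcnj13 are not among those genes, and their brightest probe sets gained a call in SCA3 on quantile normalization and on centring. The causes were not tested. The spike-in levels and the GAPDH differences each separate all drug from all placebo arrays. With the spike-in levels in the fit, the errors widen (SE 0.14 against 0.08 for Kcnh3). Signal near the filter limits the dim members: 28 genes have no test, and their change cannot be read here. Whether arrays are separate mice is not stated, and scan batches are not known.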
